A study of Homo sapiens with 4 samples.

Results

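The collagen genes of SK-N-SH cells were examined with and without overexpression of the lncRNA *RP5-998N21.4*. The SK-N-SH line, established from a human neuroblastoma, is a mixed culture of cell forms. The members are the genes whose symbol is COL, a number, A and a number, so that antisense genes, pseudogenes and *COL4A3BP* stay outside. This rule found 44 genes with 361 transcripts among the 57820 genes and 196520 transcripts in the table. The 4 RNA-seq libraries came from wild type SK-N-SH cells transduced with an empty lentivirus vector (vector control, n = 2) and from SK-N-SH cells transduced with a recombinant lentivirus that expresses *RP5-998N21.4* from the EF1a promoter (*RP5-998N21.4* OE, n = 2). Both groups therefore carry a lentiviral vector, although the control titles read WT. Nothing in the sample labels says that replicates were separate transductions, so the p-values measure only the spread between these libraries, which may be technical.

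Collagens are secreted or membrane-bound matrix proteins whose α chains, rich in Gly-X-Y repeats, wind around each other into a triple helix. Fibrillar collagens (types I, III and V) form the tensile fibers of connective tissue, type IV forms the sheet of the basement membrane, type VI forms beaded filaments, and the multiplexins XV and XVIII sit beside basement membranes. Neuroblastoma lines hold adrenergic (N-type) and mesenchymal, substrate-adherent (S-type) cells, and the latter are known for making matrix. Chains are hydroxylated and folded in the endoplasmic reticulum, trimmed outside the cell and crosslinked by lysyl oxidases.

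Library totals ranged from 23785164 to 28307591 counts. The targeted gene *RP5-998N21.4* stood at 1.37 and 1.4 CPM (counts divided by the library size after TMM, scaled to a common total) in the vector control, and at 95.9 and 97.1 CPM in OE, which matches the labels, although its reads may be shared with a near-identical copy. The adrenergic marker *DBH*, which makes noradrenaline, was present in every library (22.7 to 41.5 CPM), while *TH*, an earlier enzyme of the same pathway, had 0 counts in all 4. The endothelial, keratinocyte and hepatocyte markers in the table had 0 counts, and the leukocyte and astrocyte markers summed to at most 1.31 CPM. Fibroblast and osteoblast markers summed to 431 to 469 CPM in the vector control and 360 to 511 CPM in OE, with *TCF21* at 0, and of the chondrocyte markers only *SOX9* was above 1 CPM, with *ACAN* and *LECT1* at 0. Of the 10 adrenergic markers, the 9 tested were all higher in both OE libraries than in both vector control libraries (27.8% of all genes tested were), with a summed level of 603 to 670 CPM in the vector control and 1011 to 1069 CPM in OE. Of the 10 mesenchymal markers, 6 were lower and 3 higher in both OE libraries (27.6% and 27.8% of all genes tested were), with a summed level of 3303 to 3526 CPM in the vector control and 2767 to 3770 CPM in OE. The upper value in OE was that of OE replicate 1, where *VIM* was at 1254 CPM, against 348 to 376 CPM in the other libraries. The part of these marker differences in the collagen results below was not tested, and in bulk RNA fewer cells of a type and less RNA per cell cannot be told apart.

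Of the 44 collagen genes, 38 had at least 1 count and 24 passed the filter on low counts (edgeR's filterByExpr). The 14 with counts that did not pass never exceeded 16 counts in a library, and 8 of them had counts in 1 library only. The 6 without any count were *COL2A1* and *COL11A2* of cartilage fibrils, *COL4A5*, *COL6A5*, *COL20A1* and *COL25A1*. A gene at 0 may still be present at up to 3 counts in a library, a limit that covers counting error only. Collagen counts were concentrated in few genes. The 9 genes whose mean reached 100 CPM (*COL1A1*, *COL4A2*, *COL5A2*, *COL6A2*, *COL3A1*, *COL18A1*, *COL4A1*, *COL5A1* and *COL6A1*) held from 95.4% to 96.9% of the summed collagen CPM in each library.

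**Figure D1:**
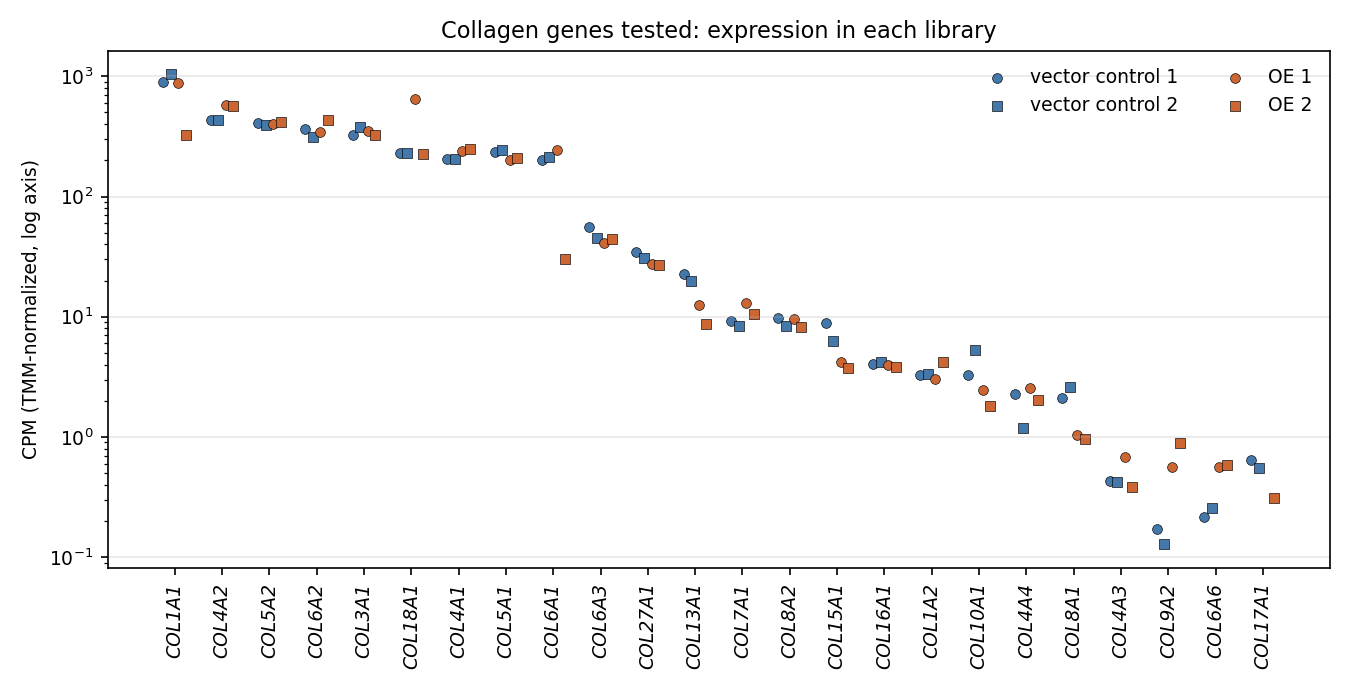
Expression of the 24 collagen genes tested, in CPM on a log axis, with 1 point per library (blue, vector control; orange, OE). Most genes have their 4 points close together, while *COL1A1* and *COL6A1* have a low OE 2 point and *COL18A1* a high OE 1 point; *COL17A1* had 0 counts in OE 1, which is not drawn.

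Per kilobase of annotated exon, *COL1A1* had the highest level of the 44 genes in both vector control libraries and OE replicate 1 (98.0 to 115 CPM per kb). In OE replicate 2 it was at 36.2 CPM per kb, below *COL6A2* (80.4), *COL5A2* (57.0) and *COL3A1* (47.7). *COL6A2* came next to *COL1A1* in the vector control (68.3 and 58.6 CPM per kb), while in OE replicate 1 *COL18A1* (76.6) was above it. The order also depends on the length used. Divided by the length of the leading transcript instead of all exons, which was tried after the values were seen, *COL4A2* was at 66.8 and 67.3 CPM per kb in the vector control instead of 22.3 and 22.5. *COL1A2*, which encodes the partner chain of *COL1A1* in the usual type I heterotrimer, had a mean of 0.320 CPM per kb of exon. The ratio of *COL1A1* to *COL1A2* per kilobase was 326 and 376 in the vector control, and 350 and 93.5 in OE. The type I chains were thus expressed very unequally in every library, and OE replicate 2 stood apart from the other 3. The type III chain *COL3A1* and the type V chains *COL5A1* and *COL5A2*, which form fibrils with type I, were all among the 9 genes above 100 CPM.

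OE was compared with the vector control by the quasi-likelihood test of edgeR, adjusted by Benjamini and Hochberg over the 20528 genes tested, and a log2 fold change is given ± its standard error. The study's thresholds (adjusted p under 0.01, log2 fold change beyond 0.5 in either direction) were applied there with DESeq2, whose calls here are given below. With edgeR at the same thresholds, 0 of the 24 collagen genes were called, and 0% of all genes tested were called. At an adjusted p under 0.05 with the same fold limit the members called were again 0, against 0.594% of the genes tested. At shares this small, 0 calls among 24 genes do not set the collagen genes apart. Even *RP5-998N21.4* missed the adjusted p threshold of 0.01 (edgeR adjusted p = 0.0109). Before adjustment, at p under 0.05, 3 collagen genes were higher (*COL4A1*, *COL4A2* and *COL9A2*) and 5 lower (*COL5A1*, *COL8A1*, *COL10A1*, *COL13A1* and *COL15A1*) in OE, which is 33.3% of the 24, against 20.8% of all genes tested (10.1% higher and 10.7% lower). *COL6A6*, *COL9A2* and *COL17A1* reached the level of the filter in the libraries of a single group only, the former pair in OE and the last in the vector control. Without such genes the counts were 2 higher and 5 lower of 21 collagen genes (33.3%), against 20.3% of the 20011 other genes tested. With upper-quartile normalization the split of all 24 was 4 higher and 4 lower, with *COL6A6* and *COL9A2* among those higher. DESeq2's Wald test called 0 higher and 3 lower at the study's thresholds (*COL8A1*, *COL13A1* and *COL15A1*), against 8.77% of all genes tested (4.42% lower), and limma-voom called 0. The median log2 fold change of the 24 genes was -0.04 (mean -0.07), beside 0.01 over all genes tested, with 11 genes above and 13 below 0. In 15 of the 24 genes (62.5%) the OE libraries did not overlap the vector control libraries, 5 above and 10 below, against 55.4% of all genes tested (27.8% above and 27.6% below), and without the genes that passed the filter through 1 group in 12 of 21 (57.1%), against 54.3%. With 2 libraries against 2, the exact two-sided permutation test of a single value cannot give a p under 0.333. With 1 library left out, a group holds a single library, so genes passing a p threshold are not counted for such fits. The groups did not overlap in the 8 genes above, so leaving out a library could hardly change the sign. Their log2 fold changes ranged from 0.39 to 0.41 for *COL4A2*, 0.24 to 0.28 for *COL4A1* and -0.26 to -0.20 for *COL5A1*. The ranges were wider for *COL8A1* (-1.37 to -1.07), *COL10A1* (-1.32 to -0.62), *COL13A1* (-1.28 to -0.75), *COL15A1* (-1.17 to -0.68) and *COL9A2* (1.86 to 2.55). These 8 calls therefore rest on the 4 libraries together.

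**Figure D2:**
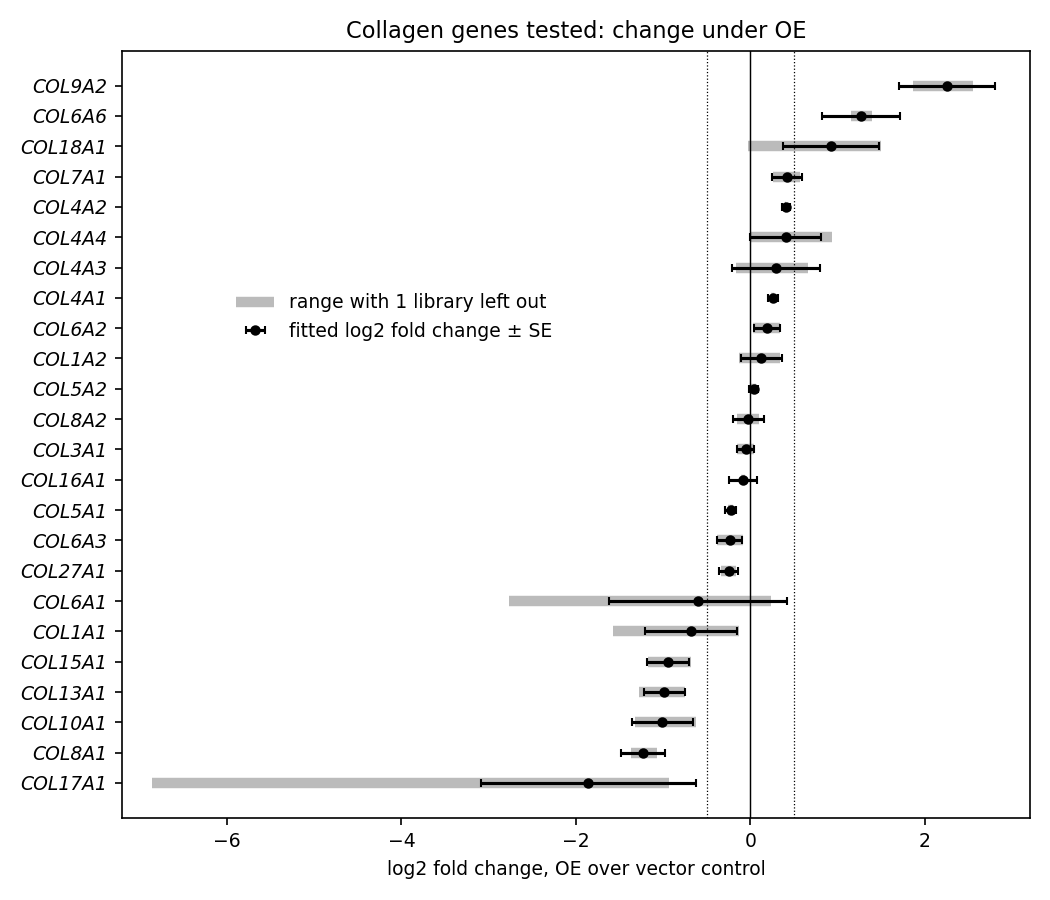
Fitted log2 fold change of OE over the vector control for the 24 collagen genes tested (points) with its standard error (black bars), and the range of the value when 1 library at a time was left out (grey bars). Dotted lines mark log2 fold changes of -0.5 and 0.5. *COL4A1* and *COL4A2* have the narrow ranges 0.24 to 0.28 and 0.39 to 0.41, and *COL1A1*, *COL6A1*, *COL17A1* and *COL18A1* have wide ones.

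The network-forming chains *COL4A1* and *COL4A2*, the ubiquitous chains of basement membrane collagen, were both higher in the OE libraries. *COL4A2* (ENSG00000134871.13) was at 430.6 and 434.0 CPM in the vector control and at 574.7 and 568.5 CPM in OE. *COL4A1* (ENSG00000187498.10) was at 203 and 205 CPM in the vector control and at 241 and 247 CPM in OE. For both genes the OE libraries lay above the vector control libraries, and replicates differed by at most 1.03-fold. The log2 fold change was 0.40 for *COL4A2* (± 0.0455, unadjusted p = 0.0012, edgeR adjusted p = 0.0704) and 0.26 for *COL4A1* (± 0.0589, unadjusted p = 0.0138, edgeR adjusted p = 0.144). Under DESeq2 the adjusted p was 1.99e-33 for *COL4A2* and 3.23e-06 for *COL4A1*, but neither passed the fold threshold of 0.5, and over all alternatives it ranged from 1.99e-33 to 0.296 and from 3.23e-06 to 0.335. The ratio of *COL4A1* to *COL4A2* per kilobase was 0.620 and 0.622 in the vector control and 0.552 and 0.572 in OE. Nearly all counts of both genes lay on a single transcript each, ENST00000375820.4 for *COL4A1* (99.3% to 99.7% per library) and ENST00000360467.5 for *COL4A2* (99.8% to 99.9%).

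In hg19 (GRCh37) *COL4A1* occupies chromosome 13 from 110801310 to 110959504 (minus strand), and *COL4A2* the stretch from 110958159 to 111165556 (plus strand), with antisense exons of *COL4A2-AS1* and *COL4A2-AS2* over its own. The leading transcripts start head to head with 126 bases between them, and the genes are known to share a bidirectional promoter. The stretch between both starts, chr13:110959505-110959630 on the plus strand of GRCh37, is shown because both partner chains were higher in OE. It lies within the annotated span of *COL4A2*, of which a minor transcript, ENST00000480771.1, starts inside the stretch at 110959614.
between the COL4A1 and COL4A2 leading transcripts: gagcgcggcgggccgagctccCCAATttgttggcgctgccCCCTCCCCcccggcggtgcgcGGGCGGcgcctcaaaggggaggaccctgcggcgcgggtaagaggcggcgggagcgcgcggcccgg
Capitals mark letters searched for on both strands. CCAAT starts at base 22, CCCTCCCC at base 41 and GGGCGG at base 62, counted from the first base shown, and they do not overlap. These letters occur in 21.1%, 8.27% and 34.6%, respectively, of the 126-base windows just before the starts of 35116 RefSeq genes (GRCh38.p14). TATAA (10.6% of the windows) and the interferon-response core (GAAA, any 2 bases, GAAA; 1.47%) had 0 matches. The stretch has a GC content of 80.2%, beside a median of 60.3% over the windows.

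The remaining network collagens were scarce. *COL8A1*, a short-chain collagen of vessel walls and the eye, had counts of 49 and 61 in the vector control, and of 26 and 28 in OE. That is 2.10 and 2.60 CPM against 1.04 and 0.968 CPM, so that both OE libraries lay below (log2 fold change -1.23 ± 0.252, edgeR adjusted p = 0.126 and 0.0062 from DESeq2, which is the lowest of a range to 0.324 over the alternatives). The groups overlapped in its partner chain *COL8A2*, at 9.79 and 8.30 CPM in the vector control and 9.64 and 8.16 CPM in OE (log2 fold change -0.02 ± 0.176, edgeR adjusted p = 0.956). The ratio of *COL8A1* to *COL8A2* per kilobase was 0.107 and 0.155 in the vector control and 0.0533 and 0.0589 in OE. *COL10A1*, the collagen of hypertrophic cartilage, had counts of 76 and 125 in the vector control, and of 62 and 52 in OE (log2 fold change -1.01 ± 0.354, edgeR adjusted p = 0.240). The kidney and inner ear basement membrane chains *COL4A3* and *COL4A4* had from 10 to 17 and from 28 to 64 counts per library, with overlapping groups, and *COL4A6* did not pass the filter.

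Among the fibrillar collagens, *COL5A1* was at lower values in both OE libraries, and the other chains above 100 CPM overlapped between the groups or depended on 1 library. *COL5A1*, whose product initiates collagen fibrils, was at 233 and 242 CPM in the vector control and at 199.5 and 207 CPM in OE. Both OE libraries lay below (log2 fold change -0.22 ± 0.0643, edgeR unadjusted p = 0.0277 and adjusted p = 0.188), and the unadjusted p stayed under 0.05 with 1 of the 4 libraries left out and not with the other 3. Its partner *COL5A2* was at 408 and 392 CPM in the vector control and at 402 and 417 CPM in OE (log2 fold change 0.04 ± 0.0556, edgeR adjusted p = 0.765). The ratio of *COL5A1* to *COL5A2* per kilobase was accordingly 0.374 and 0.406 in the vector control and 0.325 and 0.326 in OE. *COL3A1* was at 325 and 375 CPM against 351 and 322 CPM, with a log2 fold change of -0.06 (± 0.101). *COL27A1*, a fibrillar collagen of cartilage, was at 34.6 and 30.6 CPM against 27.7 and 27.2 CPM (log2 fold change -0.25 ± 0.111, edgeR adjusted p = 0.313). *COL1A2* had from 76 to 121 counts per library, with overlapping groups. *COL24A1*, *COL11A1* and *COL5A3* had at most 9 counts in any library.

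*COL1A1* (ENSG00000108821.9, minus strand of chromosome 17 from 48261462 to 48278993, with exon sequence of another gene on the opposite strand) was at 897 and 1039 CPM in the vector control, at 883 CPM in OE replicate 1 and at 326 CPM in OE replicate 2. Only OE replicate 2 was far from the others, at 0.337 times the vector control mean. The log2 fold change was -0.68 (± 0.525, edgeR adjusted p = 0.528), -0.13 without OE replicate 2 and -1.57 without OE replicate 1. Many *COL1A1* counts of OE replicate 2 also lay on another transcript. ENST00000225964.5, with 51 exons and 5914 nt, held 99.9% or more of the *COL1A1* counts in the other 3 libraries and 44% in OE replicate 2. There, 55.9% of the counts (5268) lay on ENST00000510710.3, a 1147-nt transcript typed as a retained intron that lies in the 3′ part of the gene from 48263205 to 48264483, against 3 to 5 counts in the other libraries. Per kilobase, the long transcript had 3529 to 4126 counts in the other 3 libraries and 700.5 in OE replicate 2, and the short one had 4593 in OE replicate 2.

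*COL3A1*, *COL6A1* and *COL15A1* also had counts of OE replicate 2 on a transcript typed as a retained intron that was little used or unused in the other libraries. In *COL3A1*, ENST00000487010.1 held 30.0% of the counts in OE replicate 2 and at most 1.69% in the others. *COL6A1* was at 200 and 214 CPM in the vector control, at 243 CPM in OE replicate 1 and at 30.3 CPM in OE replicate 2, where ENST00000486023.1 held 14.8% of its counts and had 0 counts elsewhere. In *COL15A1*, ENST00000471477.1 held 18 counts (16.5%) in OE replicate 2 and 0 elsewhere. Over all collagen genes, transcripts of this type held 0.177%, 0.19% and 0.354% of the counts in the first 3 libraries and 9.98% in OE replicate 2. Over all genes in the table the share was 4.41% to 4.58% and did not set OE replicate 2 apart. With these transcripts left out, which was tried after the values were seen, the log2 fold change of *COL1A1* was -0.91, that of *COL3A1* -0.29 and that of *COL15A1* -1.04.

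**Figure D3:**
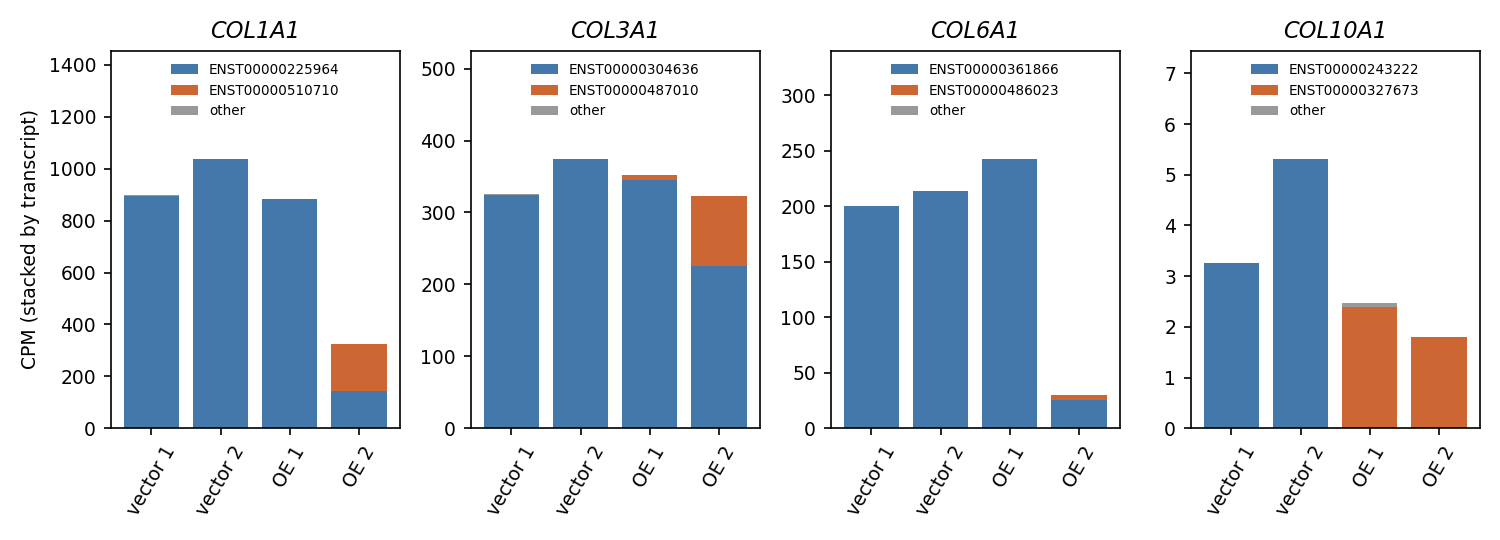
CPM of *COL1A1*, *COL3A1*, *COL6A1* and *COL10A1* in each library, stacked by transcript (blue, the transcript with the most counts; orange, the next; grey, all others). In OE 2 the leading transcript of *COL1A1*, *COL3A1* and *COL6A1* is lower than in the other libraries and a retained-intron transcript appears, and in *COL10A1* the vector control and OE libraries use different transcripts.

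Type VI collagen is a heterotrimer of *COL6A1*, *COL6A2* and *COL6A3* chains, whose patterns over the libraries differed. *COL6A2* was at 364 and 313 CPM in the vector control and at 345 and 429 CPM in OE (log2 fold change 0.19 ± 0.149, edgeR adjusted p = 0.525). *COL6A3* was at 56.0 and 45.4 CPM against 41.4 and 44.6 CPM (log2 fold change -0.24 ± 0.145, edgeR adjusted p = 0.432). Both OE libraries lay below the vector control in *COL6A3*, with OE replicate 2 at 0.880 times the vector control mean, while *COL6A2* overlapped. *COL6A1* was at 0.146 times the vector control mean in OE replicate 2. The log2 fold change of *COL6A1* was -0.60 (± 1.02, edgeR adjusted p = 0.785), 0.23 without OE replicate 2 and -2.77 without OE replicate 1. The ratio of *COL6A1* to *COL6A2* per kilobase was 0.529 and 0.659 in the vector control, and 0.679 and 0.0680 in OE. The scarce type VI chain *COL6A6* had counts of 5 and 6 in the vector control, and of 14 and 17 in OE (log2 fold change 1.27 ± 0.445, edgeR adjusted p = 0.241).

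The multiplexins *COL15A1* and *COL18A1* differed in their patterns. *COL18A1*, the source of endostatin, was at 229.7 CPM in both vector control libraries, at 648 CPM in OE replicate 1 and at 226 CPM in OE replicate 2. The high value was thus confined to OE replicate 1 (log2 fold change 0.93 ± 0.550, edgeR adjusted p = 0.421), and without it the log2 fold change was -0.02. *COL18A1* shares exon sequence with *SLC19A1* on the opposite strand, and whether the counting used strand is not given in the sources used here. *COL15A1* had counts of 208 and 149 in the vector control, and of 105 and 109 in OE, or 8.93 and 6.34 CPM against 4.18 and 3.77 CPM. Both OE libraries lay below (log2 fold change -0.94 ± 0.239, edgeR adjusted p = 0.161 and 0.00835 from DESeq2, with a range to 0.353 over the alternatives).

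Replicate spread of this size was found in *COL1A1*, *COL6A1* and *COL18A1*, where the OE libraries differed 2.71-fold, 8.02-fold and 2.87-fold. Of the 11 collagen genes whose mean reached 20 CPM (a limit set after the values were seen), the OE libraries differed more than 2-fold in these 3 (27.3%), against 7.38% of the 8938 genes tested at that level, and the vector control libraries in 0, against 6.95%. Summed over the 44 genes, collagen expression was 3451 and 3581 CPM in the vector control and 4013 and 2893 CPM in OE. Without these 3 genes, which were left out for their values, the sum was 2124 and 2099 CPM in the vector control and 2239 and 2311 CPM in OE.

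The transmembrane collagen *COL13A1*, found at cell adhesions and neuromuscular junctions, was lower in OE. It had counts of 529 and 463 in the vector control, and of 317 and 253 in OE, or 22.7 and 19.7 CPM against 12.6 and 8.75 CPM. Both OE libraries lay below both vector control libraries by more than the SD between replicates (2.13 and 2.75 CPM). Its log2 fold change was -0.99 (± 0.235, edgeR unadjusted p = 0.0157 and adjusted p = 0.150 and 0.00154 from DESeq2, with a range to 0.335 over the alternatives), between -1.28 and -0.75 with each library left out. The epithelial hemidesmosome collagen *COL17A1* had counts of 15 and 13 in the vector control, and of 0 and 9 in OE. Its fitted log2 fold change of -1.86 depended on the library at 0 (-0.93 without OE replicate 1, -6.86 without OE replicate 2) and is no bound. *COL23A1* had 4 counts in 1 library.

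The anchoring fibril collagen *COL7A1* was at 9.19 and 8.38 CPM in the vector control and at 13 and 10.5 CPM in OE (log2 fold change 0.42 ± 0.172, edgeR adjusted p = 0.288). Fibril-associated (FACIT) collagens, which coat other fibrils, were low throughout, and only *COL16A1* and *COL9A2* passed the filter. *COL16A1* was at 4.08 and 4.17 CPM against 3.95 and 3.84 CPM (log2 fold change -0.08 ± 0.158). *COL9A2* had counts of 4 and 3 in the vector control, and of 14 and 26 in OE, with a log2 fold change of 2.25 (± 0.551, edgeR adjusted p = 0.154) that rests on these few counts. With retained-intron transcripts left out, the fitted log2 fold change of *COL9A2* was 7.21, since all its vector control counts lay on such a transcript, and this value against 0 counts is no bound. *COL9A1*, *COL12A1*, *COL14A1* and *COL22A1* had at most 5 counts in any library, and *COL9A3*, *COL19A1* and *COL21A1* at most 16. *COL26A1* and the type VI-like *COL28A1* had at most 5.

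In *COL9A2* and *COL10A1* the leading transcript was the same within each group and different between the groups. All *COL10A1* counts lay on ENST00000243222.4 in both vector control libraries, with 76 and 125 counts, and on ENST00000327673.4 in OE, with 60 and 52 counts beside 2 counts on another transcript. On ENST00000243222.4 alone the fitted log2 fold change of *COL10A1* was -9.76, again against 0 counts and no bound, instead of -1.01 for the gene. The former has 3 exons and the latter 2, and both are protein coding and lie on the minus strand of chromosome 6 between 116440086 and 116447296. The *COL9A2* counts lay on ENST00000482722.1, typed as a retained intron, in the vector control and on the protein-coding ENST00000372748.3 in OE. Of the 16 collagen genes with counts on several transcripts and in every library, these 2 are 12.5%, against 2.94% of 11407 genes tested. Without *COL9A2* and the other genes that passed the filter through 1 group, it is *COL10A1* alone, 1 of 15 (6.67%), against 2.89%. The leading transcript differed between any of the libraries in 4 of the 16 (25%), adding *COL1A1* and *COL4A3*, against 31.3%. In *COL7A1* and *COL6A2*, a transcript was used in 1 library of each group and absent from its replicate. ENST00000487017.1 of *COL7A1* had 52 counts in vector control replicate 2, 80 in OE replicate 1 and 0 in the others, and ENST00000413758.1 of *COL6A2* had 461 and 644 counts in the same libraries and 0 in the others.

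The genes that modify, process and bind collagen were examined in 4 lists with 67 genes in the table, of which 58 were tested. At the study's thresholds edgeR called 0 of them. At an unadjusted p under 0.05, 3 were higher and 19 lower in OE, against 10.1% higher and 10.7% lower over all genes tested. Both OE libraries lay above the vector control in 6 genes and below it in 29 (background 27.8% and 27.6%), and the median log2 fold change was -0.25. DESeq2 called 2 higher and 10 lower, against 4.35% and 4.42% of all genes tested. *CD44* and *FN1* are also among the mesenchymal markers above, of which 6 were lower and 3 higher in both OE libraries. *CD44* was among the 6, while the groups overlapped in *FN1*.

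**Figure D4:**
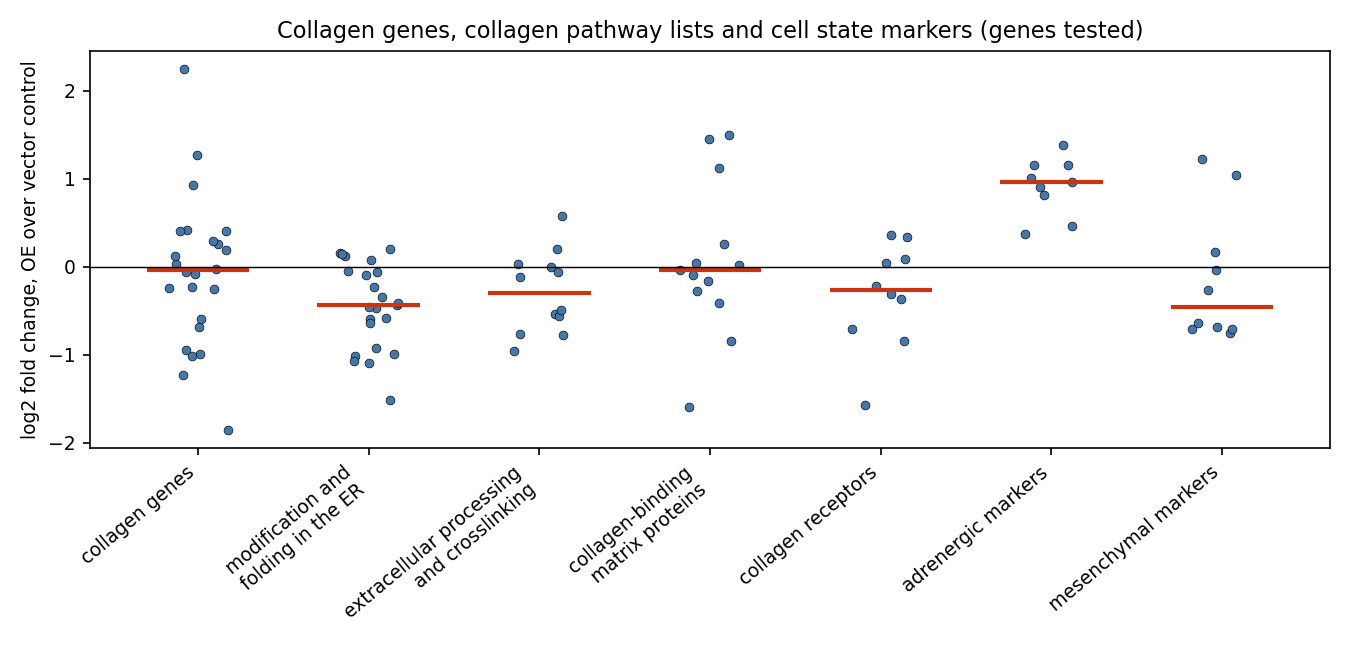
Log2 fold change of OE over the vector control for every gene tested in the collagen set, the 4 pathway lists and the adrenergic and mesenchymal marker lists (points), with the median of each list (red line). The medians are -0.04 for the collagen genes, -0.43, -0.30, -0.04 and -0.27 for the pathway lists from left to right, 0.96 for the adrenergic and -0.45 for the mesenchymal markers.

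Chain modification and folding in the endoplasmic reticulum was covered by 23 tested genes. Of these, 7 (30.4%) had an unadjusted p under 0.05, all lower in OE, against 20.8% of all genes tested (10.7% lower). *P4HB*, the β subunit of prolyl 4-hydroxylase, was at 715 and 749 CPM in the vector control and at 554 and 534 CPM in OE (log2 fold change -0.43 ± 0.0525, edgeR adjusted p = 0.0751). *CRTAP*, part of the prolyl 3-hydroxylation complex, was at 625 and 645 CPM against 505 and 495 CPM. *FKBP14*, a prolyl isomerase, was at 164 CPM in both vector control libraries and at 108 and 109 CPM in OE (log2 fold change -0.60 ± 0.067, edgeR adjusted p = 0.0703). In all 3 genes the OE libraries lay below the vector control. *P4HA3*, a catalytic subunit of prolyl 4-hydroxylase, was scarce, at 3.78 and 3.87 CPM against 1.79 and 1.80 CPM. The collagen chaperone *SERPINH1* was at 512 and 575 CPM against 601 and 542 CPM, with overlapping groups. *COLGALT2*, a collagen galactosyltransferase, was at 392 and 371 CPM against 340 and 38.8 CPM, so that again OE replicate 2 stood apart.

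Extracellular processing and crosslinking was covered by 12 tested genes, with 0 higher and 4 lower at an unadjusted p under 0.05 (33.3%, against 20.8% of all genes tested). The lysyl oxidase *LOX*, which crosslinks fibrils, was at 23.1 and 26.1 CPM in the vector control and at 13.7 and 11.6 CPM in OE (log2 fold change -0.96 ± 0.150, edgeR adjusted p = 0.0933). *LOXL2*, which crosslinks type IV collagen, was at 419 and 433 CPM against 291 and 288 CPM (log2 fold change -0.56 ± 0.0534, edgeR adjusted p = 0.0629). The transglutaminase *TGM2* had the highest CPM of the list, not corrected for length, at 2330 and 2371 CPM against 1609 and 1628 CPM, and of the 58 genes it alone passed an adjusted p under 0.05 with an absolute log2 fold change above 0.5 (log2 fold change -0.54 ± 0.0323, edgeR adjusted p = 0.0376). That call was lost with any library left out (edgeR adjusted p from 0.0919 to 0.109), with the replicate number as a block (0.2955), on the leading transcript (0.0586), without retained-intron transcripts (0.0525) and, by the fold limit, with upper-quartile normalization (log2 fold change -0.499). *PCOLCE2*, an enhancer of procollagen trimming, was at 24.5 and 26.4 CPM against 14.3 and 15.7 CPM. The peroxidase *PXDN*, which also crosslinks type IV collagen, was at 1286 and 1240 CPM against 1281 and 1297 CPM (log2 fold change 0.03 ± 0.0397). *PCOLCE* overlapped between the groups, at 129 to 152 CPM in the vector control and 105 to 176 CPM in OE.

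Of the 13 tested collagen-binding matrix genes, 2 were higher and 4 lower at an unadjusted p under 0.05 (46.2%, against 20.8% of all genes tested). The small proteoglycans *DCN* and *ASPN* were higher, *DCN* at 11.6 and 13.2 CPM in the vector control and 29.1 and 24.7 CPM in OE. *ASPN* was at 7.77 and 6 CPM against 17.4 and 21 CPM (log2 fold change 1.49 ± 0.213, edgeR adjusted p = 0.0855). Lower were *THBS1*, at 135 and 129 CPM against 68.3 and 78.3 CPM, and *SPARC*, a collagen chaperone of the matrix, at 378 and 395 CPM against 280 and 302 CPM. *PRELP* was at 4.34 and 3.49 CPM against 1.51 and 1.07 CPM. *BGN*, a small proteoglycan, was at 1280 and 1349 CPM against 1145 and 1198 CPM (log2 fold change -0.17 ± 0.0501, edgeR adjusted p = 0.201). *FN1* and the type IV binding protein *NID1* overlapped between the groups, with log2 fold changes of -0.04 (± 0.1) and 0.05 (± 0.0594), and both changed sign under other settings.

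Of the 10 tested collagen receptor genes, 1 was higher and 4 were lower at an unadjusted p under 0.05 (50%, against 20.8% of all genes tested). *DDR2*, the receptor kinase for fibrillar collagen, was at 1147 and 1027 CPM in the vector control and at 1114 and 1192 CPM in OE. The integrin chain *ITGA2* was at 1094 and 1082 CPM against 905 and 966 CPM (log2 fold change -0.22 ± 0.0504, edgeR adjusted p = 0.146). *CD44* was at 613 and 564.5 CPM against 354 and 365 CPM (log2 fold change -0.71 ± 0.065, edgeR adjusted p = 0.0615). The type III collagen receptor *GPR56* was at 18.7 and 16.6 CPM against 10.8 and 8.99 CPM. *MRC2*, which takes up collagen for breakdown, overlapped between the groups at 580 to 658 CPM. *DDR1* and *LAIR1* had 0 counts in all libraries.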

How the data were processed

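RNA-seq libraries of transduced SK-N-SH cells (vector control, n = 2; *RP5-998N21.4* OE, n = 2) were grouped by their treatment label. The authors trimmed the reads with Trimmomatic, mapped them to hg19 with Bowtie2 (2.0.4 in the submitters' processing notes, which also list Picard 2.21.6, StringTie 2.1.6 and DESeq2) and deposited raw counts of each transcript as whole numbers. The counting tool, annotation release and use of strand are not given in the sources used here. If counts were derived from assembled coverage, they depend on how reads were placed on transcripts. Counts were summed per gene. edgeR 4.0.16 (R 4.3.3) was run with filterByExpr, TMM and the quasi-likelihood test on all genes, and DESeq2 1.42.0, limma 3.58.1, other scalings, filters, a replicate block and left-out libraries as alternatives. CPM was computed with the TMM library sizes. The scripts were tested on simulated data whose spread between replicates was smaller than the spread fitted here. That test does not show which changes these data could detect. Members and lists were chosen with earlier results of these data known. Every collagen gene, the 4 most abundant genes of each pathway list and those called by edgeR (adjusted p under 0.05) or DESeq2 with an absolute log2 fold change above 0.5 were named by rule. Genes of 0 or few counts that are named as such were added after their values were seen, and markers serve as a check. The values of 1 marker are not reported here. Positions, transcript types and exon lengths came from the lifted GENCODE annotation of GRCh37, which lacks some transcripts of the table. Figures were drawn with matplotlib 3.10.9.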

Additional observations from a re-analysis of the deposited data

How the results depend on the processing

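For *RP5-998N21.4* the log2 fold change of 6.11 missed the adjusted p threshold of 0.01 under edgeR (adjusted p = 0.0109). It passed the study's thresholds under DESeq2 (6.12) and with a minimum of 1 count in total (6.12), and ranged from 6.09 to 6.12 with each library left out. DESeq2 called 3 collagen and 12 pathway genes where edgeR called 0, and an adjusted p under 0.05 gave 0 collagen genes and 1 pathway gene. The collagen genes at an unadjusted p under 0.05 (8) ranged from 4 to 7 with each library left out. With the replicate number as a block they were 5. Same-numbered libraries did not deviate together (correlation of their deviations -0.0152), so the number was not taken to pair them. The median log2 fold change of the collagen genes was -0.23 on the transcript with the highest mean count, and -0.13 to 0.01 with each library left out. The vector control chain ratios depend on the length used. With the length of the leading transcript they were 250.5 for *COL1A1* over *COL1A2*, 0.466 for *COL4A1* over *COL4A2*, 0.481 for *COL5A1* over *COL5A2*, 0.0489 for *COL6A3* over *COL6A2* and 0.216 for *COL8A1* over *COL8A2*, instead of 351, 0.621, 0.390, 0.0371 and 0.131 with all exons. With each library left out, these of the collagen genes and the pathway genes named in the text changed sign: *COL6A1* (-2.77 to 0.23), *COL1A2* (-0.13 to 0.34), *COL3A1* (-0.157 to 0.046), *COL4A3* (-0.17 to 0.66), *COL8A2* (-0.15 to 0.10), *COL18A1* (-0.023 to 1.5), *SERPINH1* (-0.012 to 0.154), *MRC2* (-0.048 to 0.133), *NID1* (-0.012 to 0.098), *FN1* (-0.15 to 0.07), *PXDN* (-0.001 to 0.053) and *PCOLCE* (-0.43 to 0.32). On the transcript with the highest mean count, *COL4A3* (-0.44), *NID1* (-0.019) and *FN1* (0.21) changed sign, as did *COL8A2* (0.016), *FN1* (0.001) and *PCOLCE* (0.035) under upper-quartile normalization and *FN1* (0.21) without retained-intron transcripts. The cause was not tested. Depth limits the genes under about 1 CPM.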

Other observations

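Genes named after collagens but outside the rule were scarce, apart from *COL4A3BP*, a ceramide transfer protein and not a collagen. Its counts of 987 and 468 in the vector control overlapped those of 473 and 610 in OE. The antisense gene *COL18A1-AS1* had counts of 49 and 26 in the vector control, and of 17 and 16 in OE, so that it was as low in OE replicate 2, where *COL18A1* was at the vector control level, as in OE replicate 1. *COL4A2-AS1* had from 4 to 19 counts per library and *COL4A2-AS2* from 3 to 12. The pseudogenes *COL6A4P1* and *COL11A2P1* had 0 counts in all libraries.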
